A study of Arabidopsis thaliana with 12 samples.

Results

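The comparison set seedlings of gun1-101 against seedlings of Col-0, both grown on lincomycin, 3 arrays each out of 12 arrays in the series. The arrays were chosen by their labels, and every gene was eligible that the platform annotation pairs with a probe set of its own, which gave 16550 genes. Of these, 1805 carried a symbol and 14745 only a locus tag, and the locus-tag genes are described here beside the named ones.

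gun1-101 is a single mutant allele of GUN1, and Col-0 is the wild-type accession. All groups were whole seedlings of Arabidopsis thaliana, 7 days old, that had been stratified for 2 days, lit for 8 h, kept dark for 5 days and then lit without a break for 2 days. The gun1-101 lincomycin and Col-0 lincomycin groups had germinated and grown on plates with 0.5 mM lincomycin, whereas the gun1-101 control and Col-0 control groups, also 3 arrays each, had grown without it. Values are the authors' log2 expression levels after robust multi-array averaging (RMA), and a difference of 1 log2 unit is 2-fold. Levels of different genes are not comparable on this scale. A signed value given with a gene's adjusted p is its log2 difference on lincomycin, gun1-101 minus Col-0, unless said otherwise, and each adjusted p is limma's. The labels call the arrays of a group biological replicates without naming separate cultures, so the p-values measure the spread between these samples. The level of GUN1 is not analysed here and did not serve as a check of the genotype labels.

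The chloroplast protein GUN1, of the pentatricopeptide repeat family, acts in signalling from the plastid to the nucleus. Lincomycin blocks the plastid ribosome, so proteins encoded in the plastid genome are not made and the plastid stays undeveloped. In wild-type seedlings the nucleus then represses many genes for photosynthesis, and gun (genomes uncoupled) mutants were found because they keep such genes expressed. Transcription in the plastid itself uses a plastid-encoded RNA polymerase, whose core subunits are products of the rpo genes, and a phage-type polymerase encoded in the nucleus.

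Each array had a median of 6.59 to 6.70 log2 units over the genes tested. In Col-0 control, replicate 1 stood apart from its group (mean correlation of 0.979 with the others), as replicate 3 did in Col-0 lincomycin (0.9855). They are called the 2 outlying arrays. Probe sets that precede the first annotated one had medians of 4.71, 4.54 and 4.81 in gun1-101 lincomycin and 5.07, 5.14 and 4.72 in Col-0 lincomycin. The same medians were 5.10, 5.02 and 4.88 in gun1-101 control, and 5.37, 4.50 and 4.50 in Col-0 control. On lincomycin this level was lower in gun1-101 arrays than in Col-0 replicates 1 and 2, and with it as a covariate 1447 genes were called in place of 1585. Of the marker genes for organs and cell types, the root genes UPB1 and EXPA7 averaged 9.05 and 7.25 in gun1-101 lincomycin and 8.03 and 6.98 in Col-0 lincomycin. The stomatal factor SPCH averaged 8.45 in gun1-101 lincomycin and 7.73 in Col-0 lincomycin, and the trichome gene TRY 7.26 in gun1-101 lincomycin and 4.88 in Col-0 lincomycin. The values come without detection calls, so presence was not tested. Fewer cells of a type and less RNA per cell cannot be told apart in such samples.

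On lincomycin gun1-101 differed from Col-0 in 1585 of the 16550 genes, 848 higher and 737 lower (limma, Benjamini-Hochberg adjusted p under 0.05). This was 9.58% of the genes tested, 5.12% higher and 4.45% lower. At least 2-fold differences were found in 551 genes (3.33%): 403 of them were at least 2-fold higher (2.44% of all genes) and 71 at least 4-fold higher, against 148 at least 2-fold lower (0.894%) and 14 at least 4-fold lower. The median log2 difference over all genes, gun1-101 minus Col-0, was -0.05, with a 5th percentile of -0.62 and a 95th percentile of 0.75. Without the 2 outlying arrays the count was 4088 genes, 2038 higher and 2050 lower. It was 951, 1083 and 826 without gun1-101 lincomycin replicate 1, 2 or 3, and 806, 748 and 2464 without Col-0 lincomycin replicate 1, 2 or 3.

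Of the 15 highest genes 11 carried a locus tag only, and of the 15 lowest all 15 did, as did 14745 of the 16550 genes tested. Locus-tag genes were called in 732 cases higher and 600 lower, which is 9.03% of them, and genes with a symbol in 116 cases higher and 137 lower, which is 14.0% of them.

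COR15B (AT2G42530), a cold-regulated protein of the chloroplast stroma that protects membranes during freezing, had the highest difference. Its level was 8.91, 8.31 and 8.84 in the gun1-101 lincomycin arrays and 4.15, 3.66 and 4.26 in the Col-0 lincomycin arrays, 8.69 ± 0.33 against 4.02 ± 0.32 (SD, n = 3 each). Every gun1-101 array was more than 4 log2 units above every Col-0 array, and the log2 difference was 4.66 (SE 0.35, limma adjusted p = 1.1e-05), a 25.3-fold difference. Its neighbour COR15A, a related protein of the same compartment, had 10.09, 9.87 and 9.93 in gun1-101 and 7.76, 7.46 and 8.05 in Col-0, again without overlap, and was 4.61-fold higher (SE 0.28 on the log2 scale, adjusted p = 0.00066). Both genes are close relatives, and cross-hybridisation between them was not tested.

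The locus AT2G34620 came next, with 8.56, 8.59 and 9.01 in gun1-101 and 4.16, 3.49 and 5.02 in Col-0, a log2 difference of 4.50 (SE 0.32, adjusted p = 9.4e-06). AT2G29370 had 7.62, 7.62 and 7.89 in gun1-101 and 3.19, 3.41 and 3.40 in Col-0, a 20.8-fold difference with little spread within either group (SE 0.15, adjusted p = 4.4e-08). AT4G22513 had 7.04, 6.90 and 5.88 in gun1-101 and 2.05, 2.27 and 2.53 in Col-0, and AT1G21500 had 9.38, 9.67 and 9.62 in gun1-101 and 5.71, 5.33 and 5.90 in Col-0. In none of these 4 genes did the groups overlap, which was a condition for being named. The smallest of the 4 differences, that of AT1G21500, was 3.91 log2 units. The other locus-tag genes among the highest were AT1G53540, described with the heat shock genes, AT4G12490 (log2 difference 3.94, SE 0.63), AT2G25510 (3.84, SE 0.30), AT1G26761 (3.55, SE 0.17), AT5G48490 (3.13, SE 0.44), AT1G70820 (3.12, SE 0.24) and AT5G62240 (3.07, SE 0.22). Apart from AT1G53540, their adjusted p-values lay between 4.8e-07 for AT1G26761 and 0.0025 for AT4G12490.

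**Figure D1:**
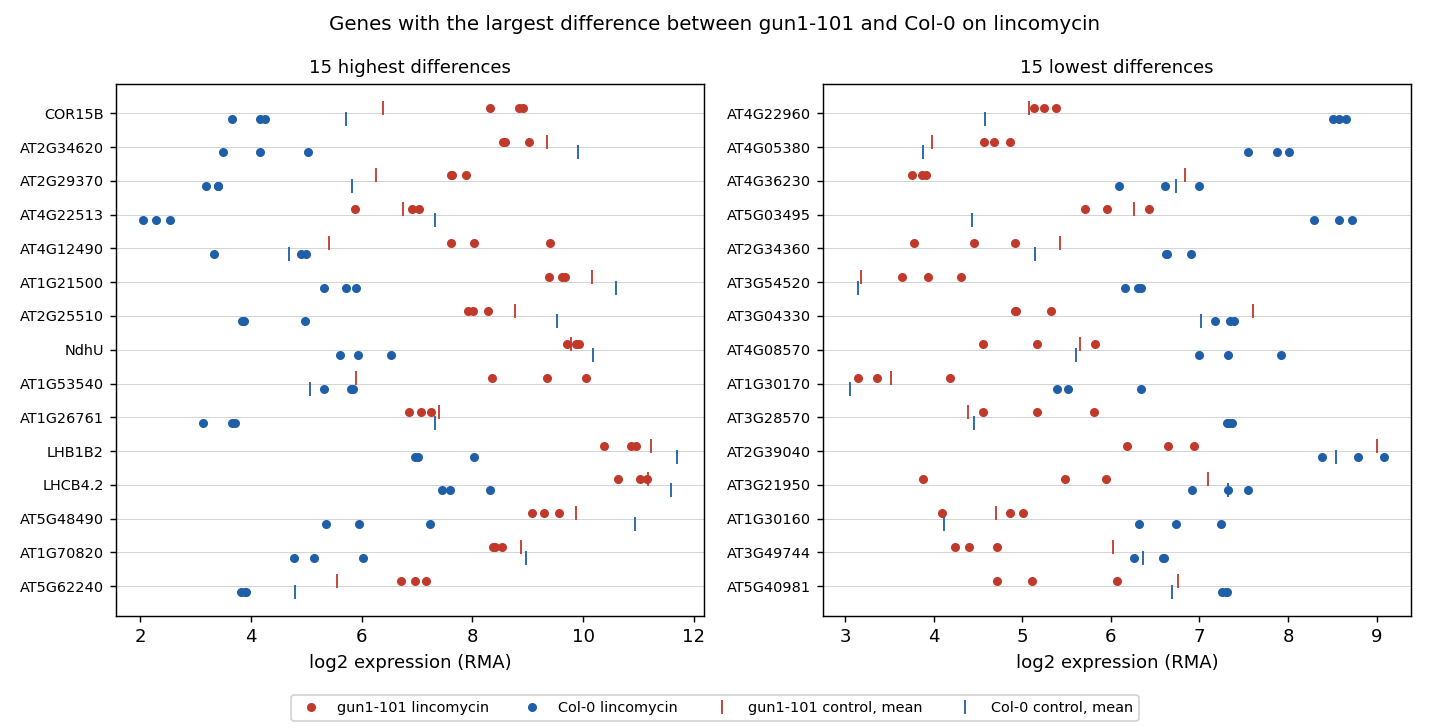
Log2 expression (horizontal axis) of the 15 genes with the highest and the 15 with the lowest difference, in the 3 gun1-101 lincomycin arrays (red points) and the 3 Col-0 lincomycin arrays (blue points). Ticks give the means of the gun1-101 control and Col-0 control arrays; in every row the red and blue points do not overlap, which was a condition for being named.

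The lead genes had different levels without lincomycin. AT2G34620 averaged 8.72 ± 0.25 in gun1-101 lincomycin, 4.22 ± 0.77 in Col-0 lincomycin, 9.35 ± 0.12 in gun1-101 control and 9.90 ± 0.43 in Col-0 control, so that Col-0 on lincomycin was the low group of the 4. AT1G21500 (9.56, 5.65, 10.15 and 10.59 in the same order) and AT2G25510 (8.07, 4.23, 8.76 and 9.53) had the same order of low and high. COR15B (8.69, 4.02, 6.38 and 5.72), AT2G29370 (7.71, 3.33, 6.26 and 5.83) and AT5G62240 (6.94, 3.87, 5.56 and 4.79) were instead highest in gun1-101 on lincomycin, with both controls in between. AT4G12490 (8.35, 4.41, 5.41 and 4.68) and AT1G53540 (9.25, 5.66, 5.89 and 5.06) had gun1-101 lincomycin as the high group, with the other 3 means within about 1 log2 unit of each other.

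Nuclear genes for the photosynthetic apparatus were higher in gun1-101 in nearly all measured cases. Over the lists for the antenna, both photosystems, electron transport with ATP synthase, the NDH complex and the Calvin cycle, 16 of 97 loci were measured, 15 of them were higher, against 5.12% of all genes, and none was lower. In these 15 every gun1-101 array lay above every Col-0 array, as in 12.9% of all genes. The median log2 difference over the 16 was 1.20, against -0.05 over all genes. The remaining gene, PGRL1B, a protein of cyclic electron flow around photosystem I, differed by 0.21 (adjusted p = 0.36). The count was 15 in each of the 12 fits that left out 1 array, with medians of 1.12 to 1.37, and without the 2 outlying arrays together. The genes of these lists that were measured are few, and the lists were chosen with earlier results of these data known.

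In the antenna, which collects light for the photosystems, all 4 measured genes of 21 were higher. LHB1B2 (AT2G34420, also named LHCB1.5), a chlorophyll a/b-binding protein of photosystem II, had 10.37, 10.95 and 10.86 in gun1-101 and 7.02, 6.97 and 8.02 in Col-0. All gun1-101 arrays lay above all Col-0 arrays, Col-0 replicate 3 being the highest of its group, and the log2 difference was 3.39 (SE 0.25, adjusted p = 1e-05). It belongs to a family of nearly identical genes, and cross-hybridisation was not tested. The 3 genes for CP29, a minor antenna protein between the core and the main antenna, were unequally different. LHCB4.2 was 8.87-fold higher (10.62, 11.02 and 11.16 in gun1-101, 7.45, 7.59 and 8.31 in Col-0), LHCB4.1 2.50-fold (9.95, 10.02 and 10.05 in gun1-101, 8.47, 8.64 and 8.93 in Col-0) and LHCB4.3 2.04-fold (6.14, 6.17 and 6.14 in gun1-101, 5.39, 4.98 and 5.00 in Col-0). Their adjusted p-values were 8.3e-06, 7.5e-05 and 0.00085 in that order, and in all 3 the groups did not overlap.

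The 2 measured photosystem I genes, both peripheral subunits of the reaction centre, were higher. PSAE-1, on the stromal side where ferredoxin docks, had 10.81, 10.91 and 10.81 in gun1-101 and 7.77, 8.00 and 8.98 in Col-0, a log2 difference of 2.59 (SE 0.24, adjusted p = 5.3e-05). PSAN, on the lumenal side, had 11.39, 11.47 and 11.53 in gun1-101 and 10.15, 10.29 and 10.84 in Col-0, a difference of 1.04 (SE 0.16, adjusted p = 0.0021). The gun1-101 arrays varied little for both genes (SD 0.06 and 0.07), and in Col-0 replicate 3 was nearest to gun1-101. The small photosystem II subunits PSBY (1.20, SE 0.19, adjusted p = 0.0021) and PSBW (1.08, SE 0.17, adjusted p = 0.0021) were higher too, as was ATPC1, the gamma subunit of the chloroplast ATP synthase (1.19, SE 0.12, adjusted p = 0.00011).

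The chloroplast NDH complex passes electrons from ferredoxin back to plastoquinone and is built from nuclear and plastid gene products, which stood on opposite sides here. The 3 measured nuclear subunits were higher. NdhU had 9.87, 9.71 and 9.93 in gun1-101 and 5.61, 5.93 and 6.52 in Col-0, a log2 difference of 3.81 (SE 0.20, adjusted p = 5.6e-07) and a 14.1-fold one on the linear scale. NdhN (1.43, SE 0.18, adjusted p = 0.00049) and NdhL (0.98, SE 0.12, adjusted p = 0.00034) showed smaller differences without overlap of the groups. All 10 measured plastid-encoded subunits were lower, with a median of -0.68 and a range from -1.80 for ndhJ to -0.47.

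Among Calvin cycle enzymes, 3 of 22 loci were measured and all were higher: PRK, phosphoribulokinase, by 1.90 (SE 0.22, adjusted p = 0.00033), SBPASE, sedoheptulose-bisphosphatase, by 1.003 (SE 0.11, adjusted p = 0.00015) and RCA, the activase of Rubisco, by 0.73 (SE 0.12, adjusted p = 0.0027). PRK had 8.78, 8.63 and 8.53 in gun1-101 and 6.32, 7.20 and 6.73 in Col-0. In photorespiration 3 of 5 measured genes were higher, against 5.12% of all genes: HPR, the peroxisomal hydroxypyruvate reductase (0.79, adjusted p = 0.0016), and the listed loci AT1G32470 (1.07, adjusted p = 0.00035) and AT1G11860 (0.59, adjusted p = 0.0079). The median of the 5 was 0.59.

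In tetrapyrrole synthesis, which leads to heme and chlorophyll, 6 of 8 measured genes were higher, against 5.12% of all genes, and the median was 0.70. PORB, which reduces protochlorophyllide in the light, had 10.02, 9.74 and 10.09 in gun1-101 and 7.85, 7.46 and 7.96 in Col-0, with no overlap. It was 4.57-fold higher (log2 SE 0.15, adjusted p = 6.1e-06). HEME1 and HEME2, both uroporphyrinogen decarboxylases of the trunk of the pathway, differed by 1.46 (SE 0.13, adjusted p = 5e-05) and 1.13 (SE 0.17, adjusted p = 0.0016). HEMA2, a glutamyl-tRNA reductase, differed by 0.74 (SE 0.17, adjusted p = 0.018), a call that ended without gun1-101 lincomycin replicate 2 or 3 or Col-0 lincomycin replicate 1 or 2. CHLM, the magnesium protoporphyrin methyltransferase, was higher by 0.66 (adjusted p = 0.011), and AT1G74470, named geranylgeranyl reductase in RefSeq's synonyms, by 0.61 (adjusted p = 0.0056). GSA1, a glutamate-1-semialdehyde aminotransferase, stood at 0.37 (adjusted p = 0.12) and hemf2 at -0.63 (adjusted p = 0.056). Both fell short of the threshold, and hemf2 was the only one of the 8 with a negative difference. Without gun1-101 lincomycin replicate 3 or Col-0 lincomycin replicate 2, 4 of the 8 were called higher.

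**Figure D2:**
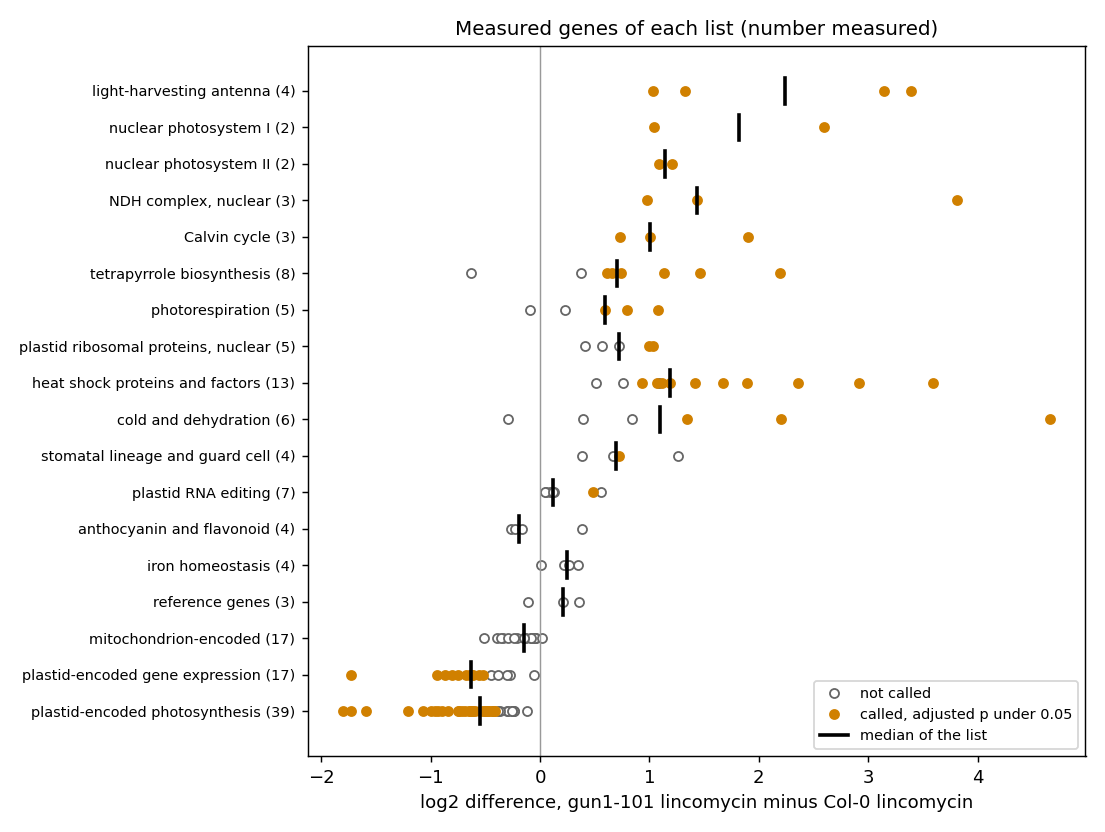
Log2 difference, gun1-101 lincomycin minus Col-0 lincomycin (horizontal axis), for each measured gene of 18 lists, with the number measured in brackets. Filled points were called, open points were not, and the black bar is the list median; nuclear photosynthesis lists lie right of 0 and plastid-encoded genes left of it.

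Further named genes of the plastid were picked out after their values were seen, so their direction adds nothing to the counts above. They were higher in gun1-101 as well: PIFI, a protein tied to NDH activity (2.12, SE 0.18), CCB3, which helps to attach heme to cytochrome b6 (1.76, SE 0.15), CaS, a calcium-binding thylakoid protein (1.62, SE 0.19), FIB, a fibrillin of plastoglobules (1.62, SE 0.14), TRXF2, a thioredoxin that activates Calvin cycle enzymes (1.34, SE 0.23), PSB27, a photosystem II assembly factor (1.26, SE 0.19), SECE1, of the thylakoid Sec translocase (1.13, SE 0.18), and Z-ISO, a carotenoid isomerase (1.01, SE 0.19). Their adjusted p-values ranged from 2.3e-05 to 0.0056. PIFI had 10.38, 10.30 and 10.44 in gun1-101 and 8.36, 8.00 and 8.41 in Col-0. Of 12 measured genes described as photosystem, thylakoid or chloroplast NDH, some named above, 10 were higher, against 5.12% of all genes. The other 2 were not called. In 1 of these, at -0.33, every gun1-101 array lay below every Col-0 array, as in 17.6% of all genes. The plastid ascorbate peroxidases, which detoxify hydrogen peroxide, were both higher, TAPX of the thylakoid by 1.55 (SE 0.15, adjusted p = 7.5e-05) and SAPX of the stroma by 0.78 (SE 0.18, adjusted p = 0.02). The call of SAPX ended without gun1-101 lincomycin replicate 1 or 3 or Col-0 lincomycin replicate 1 or 2.

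Lists for other plastid functions were measured too, beside 5.12% of all genes called higher. Of 7 measured factors of plastid RNA editing, which changes C to U in plastid transcripts, LPA66 was called at 0.48 (SE 0.14, adjusted p = 0.047), and its call ended in 16 of 24 alternatives, among them those without any 1 of the gun1-101 arrays. The median of the 7 was 0.12. Among 5 nuclear genes for plastid ribosomal proteins AT1G29070 (0.999, adjusted p = 0.00087) and AT3G54210 (1.03, adjusted p = 0.037) were higher, with a list median of 0.72. In AT3G54210 the third Col-0 array (11.72) lay far above the other 2 (10.57 and 10.55). Without that array, Col-0 lincomycin replicate 3, all 5 ribosomal genes were higher and the median was 1.04. The call of AT3G54210 ended without any 1 of the gun1-101 arrays or Col-0 lincomycin replicate 1 or 2. The plastid chaperone gene HSP93-III, part of the import motor, stood at 0.01 (adjusted p = 0.95).

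Plastid-encoded transcripts ran the other way. All 63 measured genes of the plastid genome had a negative difference, whereas 56.6% of all genes did, and 45 of them were called lower, against 4.45% of all genes. The median was -0.59, and in 59 of the 63 every gun1-101 array lay below every Col-0 array, as it did in 17.6% of all genes. With 1 array left out, between 25 and 51 were called lower: 25 without gun1-101 lincomycin replicate 1 or without Col-0 lincomycin replicate 2, and 27 without gun1-101 lincomycin replicate 3. The upper end, 51, was reached without Col-0 control replicate 1. With the 2 outlying arrays left out, 52 were called. In a fit of the 6 lincomycin arrays alone, where the control arrays give no part of the spread, 30 of the 63 were called lower. The median level over the 63 was 11.20, 11.54 and 11.28 in the gun1-101 lincomycin arrays and 11.79, 12.03 and 11.81 in the Col-0 lincomycin arrays, without overlap. These transcripts share 1 genome and polycistronic units, so they are not independent.

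The largest decreases were in genes of several complexes. ndhJ, an NDH subunit, had 8.73, 9.09 and 8.86 in gun1-101 and 10.57, 10.91 and 10.60 in Col-0, 3.48-fold lower without overlap (log2 difference -1.80, SE 0.16, adjusted p = 4.2e-05). petL, a small subunit of the cytochrome b6f complex, had 8.56, 9.07 and 8.69 in gun1-101 and 10.62, 10.75 and 10.15 in Col-0 (-1.73, SE 0.18, adjusted p = 0.00015). rps14, a ribosomal protein, had 9.38, 9.78 and 9.89 in gun1-101 and 11.18, 11.43 and 11.63 in Col-0 (-1.73, SE 0.17, adjusted p = 6.5e-05). All 3 genes were more than 3-fold lower in gun1-101. psbM of photosystem II followed at -1.59 (SE 0.15, adjusted p = 6.3e-05), then ndhH at -1.21 (adjusted p = 0.0011), psaJ of photosystem I at -1.08 (adjusted p = 0.0022) and ndhK, next to ndhJ, at -1.002 (adjusted p = 0.00082).

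By complex, 10 of 10 NDH genes, 9 of 13 photosystem II genes, 2 of 5 photosystem I genes, 4 of 6 cytochrome b6f genes and 3 of 4 ATP synthase genes were lower. Their medians were -0.68, -0.65, -0.41, -0.52 and -0.43. The 3 ATP synthase calls, atpF, atpH and atpI, each ended without gun1-101 lincomycin replicate 1 or 3 or Col-0 lincomycin replicate 1 or 2. Those of psaC, petD and psbT ended in 15, 14 and 14 of 24 alternatives. Genes for expression in the plastid were lower to a like extent, 8 of 13 ribosomal genes (median -0.63) and all 4 RNA polymerase genes (median -0.63), of which rpoB had 11.50, 11.84 and 11.61 in gun1-101 and 12.21, 12.40 and 12.24 in Col-0. The 4 polymerase differences lay between -0.68 for rpoC2 and -0.56 for rpoA. Calls that ended in the fit of the 6 lincomycin arrays alone included those of rpoA, rpoC1, ndhE, petA and rpl16. Of 7 other plastid genes 5 were lower, led by ycf4, a photosystem I assembly factor (-0.89, adjusted p = 0.0041), ccsA, for cytochrome c maturation (-0.79, adjusted p = 0.0012), and cemA, of the envelope (-0.77, adjusted p = 0.0068). rbcL, the large subunit of Rubisco, stood at -0.38 (adjusted p = 0.075), psbA, the D1 protein, at -0.24 (adjusted p = 0.18), clpP, a protease subunit, at -0.15 (adjusted p = 0.48) and rpl20 at -0.05 (adjusted p = 0.81), all short of the threshold.

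**Figure D3:**
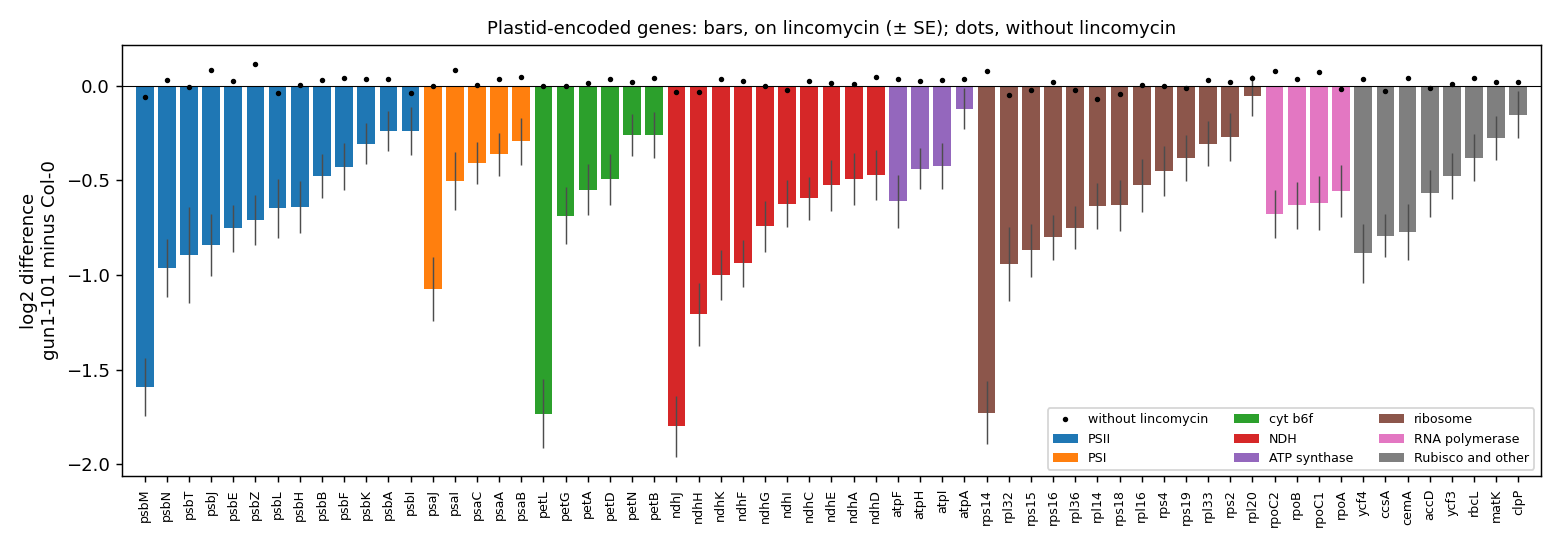
Log2 difference, gun1-101 minus Col-0 (vertical axis), of the 63 plastid-encoded genes by complex. Bars with SE are the lincomycin comparison, all below 0 with a median of -0.59, and dots are the comparison without lincomycin, all between -0.07 and 0.11.

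Without lincomycin the same 63 genes differed between gun1-101 and Col-0 by -0.07 to 0.11, with a median of 0.02 and none called. The interaction, which tests whether the genotype difference on lincomycin is unlike that without it, was called for 22 of the 63, all negative, against 2.95% of all genes. Of these 22, 13 were among the 39 photosynthesis genes. ndhJ averaged 8.89, 10.69, 11.49 and 11.52 in gun1-101 lincomycin, Col-0 lincomycin, gun1-101 control and Col-0 control. Of the 17 measured mitochondrial genes none was called in the lincomycin comparison by limma. A negative difference was found in 16 of them, against 56.6% of all genes. Without lincomycin all 17 differences were positive, from 0.02 to 0.51, and the interaction was called for none. On lincomycin the median was -0.15. That median was -0.03 without Col-0 lincomycin replicate 2, -0.09 without gun1-101 lincomycin replicate 1 and -0.03 with the array covariate. Without Col-0 control replicate 1, 1 was called lower. 1 of the 17 had an unadjusted p under 0.05. The most negative mitochondrial differences were those of ccb382 (-0.52, adjusted p = 0.15) and cox2 (-0.40, adjusted p = 0.25). With the 2 outlying arrays left out, 4 of the 17 were lower, ccb382 and cox2 among them.

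Heat shock genes, which encode chaperones that keep other proteins folded, were also higher in gun1-101. Of 13 measured loci of the list 10 were higher, against 5.12% of all genes, and none was lower, with a median log2 difference of 1.19. AT1G53540, a locus of that list, had 8.35, 10.05 and 9.35 in gun1-101 and 5.32, 5.84 and 5.81 in Col-0, 12.1-fold higher (log2 SE 0.34, adjusted p = 6.8e-05). AT1G07400 had 7.83, 9.92 and 9.26 in gun1-101 and 6.02, 5.94 and 6.31 in Col-0 (2.91, SE 0.42, adjusted p = 0.0012). AT5G37670 (2.36, adjusted p = 0.0036) and AT1G59860 (1.89, adjusted p = 0.018) followed. The call of AT1G59860 ended without gun1-101 lincomycin replicate 2 or 3 or Col-0 lincomycin replicate 1 or 2. ATHSP22.0, a small heat shock protein of the endoplasmic reticulum, differed by 1.67 (SE 0.26, adjusted p = 0.0023).

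The gun1-101 arrays were uneven in these genes. The median level over the 13 was 8.26, 9.88 and 9.26 in gun1-101 lincomycin replicates 1, 2 and 3, against 6.44, 6.72 and 7.36 in Col-0 lincomycin. Replicate 1 was thus the lowest of its group and replicate 2 the highest. Without gun1-101 lincomycin replicate 2 or 3, 6 of the 13 were called, without replicate 1 all 13 were, and without Col-0 lincomycin replicate 1 or 2, 7 were. The genotype difference was positive without lincomycin too, from 0.29 to 2.27 with a median of 0.73, and the interaction was called for 2 of the 13. Hsp70-2, a cytosolic chaperone, was the 1 member called without lincomycin. It had 6.80, 7.99 and 7.43 in gun1-101 lincomycin, 6.16, 6.35 and 6.15 in Col-0 lincomycin, 8.41, 8.22 and 8.29 in gun1-101 control and 6.22, 6.02 and 5.86 in Col-0 control. It was 2.28-fold higher in gun1-101 on lincomycin (adjusted p = 0.0085) and 4.83-fold higher without it (adjusted p = 0.0093), with an interaction adjusted p of 0.067.

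Of 6 measured Fes1 and Hop genes, partners of HSP70 that were picked out after values were seen, 3 were higher, against 5.12% of all genes. The other 3 were not called, the lowest of these being Hop2 at -0.04 (adjusted p = 0.89). Fes1B, a nucleotide exchange factor of HSP70, had 7.93, 7.98 and 7.85 in gun1-101 and 6.28, 5.88 and 5.74 in Col-0 (1.95, SE 0.15, adjusted p = 1.1e-05), with a narrow spread in gun1-101. Fes1A (1.07, adjusted p = 0.032) and Hop3, which links HSP70 to HSP90 (1.41, adjusted p = 0.019), lost their calls without gun1-101 lincomycin replicate 2 or 3, and that of Fes1A also ended without any 1 of the Col-0 lincomycin arrays. DREB2C, a transcription factor of heat and drought responses, was also picked out after its values were seen. It differed by 1.62 (adjusted p = 0.014), and this call ended without gun1-101 lincomycin replicate 1 or 3 or Col-0 lincomycin replicate 2. BIP1, a chaperone of the endoplasmic reticulum, stood at -0.47 (adjusted p = 0.10).

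Of the cold and dehydration list 3 of 6 measured genes were higher, against 5.12% of all genes: COR15B, COR15A and KIN2 (1.34, SE 0.32, adjusted p = 0.021), and the median was 1.09. KIN2, a small hydrophilic cold-induced protein, had 9.31, 9.15 and 9.52 in gun1-101 and 7.83, 7.46 and 8.65 in Col-0, and lost its call without gun1-101 lincomycin replicate 1 or 3 or Col-0 lincomycin replicate 1 or 2. The dehydrin genes COR47 and LTI30 stood at 0.39 (adjusted p = 0.38) and 0.84 (adjusted p = 0.095), and KIN1, a near relative of KIN2, at -0.29 (adjusted p = 0.52). COR27, picked out after its values were seen, was higher by 1.02 (adjusted p = 0.012), but not called without gun1-101 lincomycin replicate 3 or Col-0 lincomycin replicate 2. LEA18, a late embryogenesis abundant protein, was higher (1.64, SE 0.24, adjusted p = 0.0014). It was the 1 called gene of 6 described as late embryogenesis abundant or dehydrin, against 9.58% of all genes called. The median of the 6 was 0.21, and 2 of them had a negative difference, the lowest being -0.55.

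**Figure D4:**
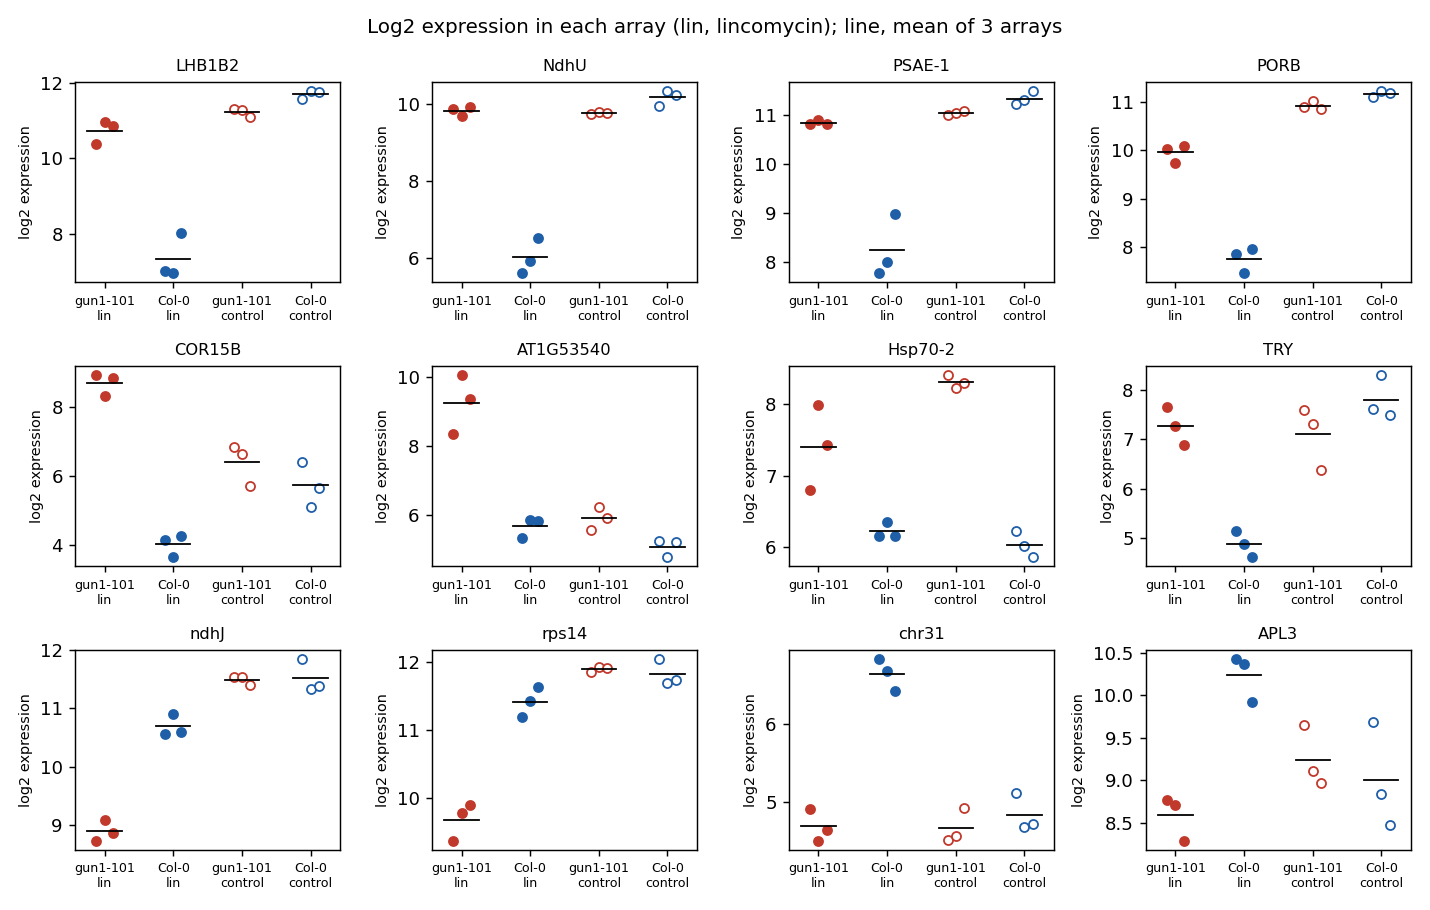
Log2 expression (vertical axis, its own range in each panel) of 12 genes in every array, in the order gun1-101 lincomycin, Col-0 lincomycin, gun1-101 control and Col-0 control; points are arrays and lines are means. LHB1B2, NdhU, PSAE-1 and PORB are low in Col-0 lincomycin, COR15B and AT1G53540 are high in gun1-101 lincomycin, ndhJ and rps14 are low in gun1-101 lincomycin, and chr31 and APL3 are high in Col-0 lincomycin.

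Enzymes of sugar storage moved in both directions. APL3, a large subunit of the ADP-glucose pyrophosphorylase that starts starch synthesis, had 8.77, 8.71 and 8.29 in gun1-101 and 10.43, 10.37 and 9.93 in Col-0, 3.14-fold lower (log2 SE 0.29, adjusted p = 0.0041). APL4, another large subunit, was picked out after its values were seen. It was lower too, its log2 difference being -1.32 (SE 0.21, adjusted p = 0.0021). ATSPS4F, a sucrose phosphate synthase, had 8.88, 9.17 and 9.15 in gun1-101 and 7.16, 7.13 and 6.64 in Col-0, 4.26-fold higher (log2 SE 0.18, adjusted p = 2.6e-05). ICL, isocitrate lyase of the glyoxylate cycle that serves seed oil breakdown, was 3.15-fold higher (adjusted p = 0.0025), while the seed protein genes M17 and PAP85 stood at -0.72 (adjusted p = 0.43) and 0.26 (adjusted p = 0.69).

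Among the genes with the lowest differences, AT4G22960 had 5.14, 5.25 and 5.38 in gun1-101 and 8.51, 8.65 and 8.57 in Col-0, lower in gun1-101 with a narrow spread in both groups (log2 difference -3.32, SE 0.17, adjusted p = 5.1e-07). AT4G05380 had 4.56, 4.69 and 4.86 in gun1-101 and 7.54, 7.87 and 8.01 in Col-0 (-3.10, SE 0.19, adjusted p = 2.5e-06). In both the lowest Col-0 array was over 2 log2 units above the highest gun1-101 array. AT4G36230 (-2.72, adjusted p = 0.00017) and AT5G03495 (-2.50, adjusted p = 0.0012) came next. The other 11 loci, from AT2G34360 (-2.33) to AT5G40981 (-1.99, adjusted p = 0.021), had adjusted p-values of 1.2e-05 or more, the lowest being that of AT3G54520. The call of AT5G40981 ended without gun1-101 lincomycin replicate 1 or 2, or Col-0 lincomycin replicate 1 or 2.

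The low genes also differed in their levels without lincomycin. AT4G22960 averaged 5.26, 8.58, 5.07 and 4.58 in gun1-101 lincomycin, Col-0 lincomycin, gun1-101 control and Col-0 control, and AT4G05380 averaged 4.70, 7.81, 3.98 and 3.88 in the same order, so Col-0 on lincomycin was the high group of the 4 in both. AT3G54520 (3.97, 6.27, 3.18 and 3.15) and AT3G28570 (5.17, 7.34, 4.39 and 4.45) were alike in this. AT4G36230 (3.85, 6.57, 6.83 and 6.74) was instead low in gun1-101 on lincomycin, with the other 3 means near each other.

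Of named nuclear genes on the low side, chr31, a chromatin remodelling protein, was the lowest. It had 4.92, 4.51 and 4.65 in gun1-101 and 6.82, 6.67 and 6.42 in Col-0, 3.86-fold lower without overlap (log2 SE 0.18, adjusted p = 4.2e-05). GH9B8, a glycosyl hydrolase of the family that holds plant endoglucanases, had 7.13, 7.09 and 6.84 in gun1-101 and 9.04, 8.37 and 8.12 in Col-0 (-1.49, SE 0.22, adjusted p = 0.0013). NET1D, an actin-binding protein, had 7.14, 7.23 and 7.29 in gun1-101 and 9.06, 8.86 and 7.90 in Col-0 (-1.39, SE 0.26, adjusted p = 0.0066), Col-0 replicate 3 being the nearest to gun1-101.

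Genes of the epidermis were among those higher. TRY, a small MYB protein that represses trichome fate, had 7.64, 7.26 and 6.88 in gun1-101 and 5.15, 4.88 and 4.62 in Col-0, 5.19-fold higher (log2 SE 0.32, adjusted p = 0.00084). SPCH, the factor that starts the stomatal lineage and the next gene on the chromosome, was higher by 0.72 (SE 0.19, adjusted p = 0.032). It was the 1 called gene of 4 in its list, against 9.58% of all genes called, and the list median was 0.69. The call of SPCH ended without gun1-101 lincomycin replicate 1 or 3 or Col-0 lincomycin replicate 2. The later factors MUTE (0.67, adjusted p = 0.092) and FMA (0.38, adjusted p = 0.24) fell short of the threshold. STOMAGEN, a peptide from the mesophyll that promotes stomata, was picked out after its values were seen (0.91, adjusted p = 0.041) and lost its call in 13 of 24 alternatives, among them those without any 1 of the gun1-101 arrays. AGL87, a MADS-box protein, had one of the 8 highest differences among genes with a symbol (2.51, SE 0.39, adjusted p = 0.0021).

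Of 5 measured genes of the mitochondrial dysfunction response, AT5G09570 (2.14, SE 0.29, adjusted p = 0.00085) and AT5G51440 (1.42, adjusted p = 0.024) were higher. AT5G51440 is also in the heat shock list, and its call ended without gun1-101 lincomycin replicate 2 or 3 or Col-0 lincomycin replicate 1 or 2. NDB2, an alternative NAD(P)H dehydrogenase of mitochondria, was lower (-0.52, adjusted p = 0.046), a call that ended without Col-0 control replicate 3, Col-0 lincomycin replicate 1 or 2, or any 1 of the gun1-101 arrays. The median of the 5 was 0.17. Without lincomycin all 5 differences were positive, from 0.21 to 2.27 with a median of 0.35, and none was called. On lincomycin 5.12% of all genes were called higher and 4.45% lower, shares that apply to the next list too. Of 4 measured subunits of succinate dehydrogenase, picked out after their values were seen, SDH1-2 (1.66, adjusted p = 0.00025) and SDH2-3 (1.26, adjusted p = 0.011) were higher. SDH2-2 stood at 0.04 (adjusted p = 0.88) and SDH1-1 at -0.19 (adjusted p = 0.35). Every gun1-101 array of SDH1-1 lay below every Col-0 array, as in 17.6% of all genes.

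In several lists no gene was called. None of 4 anthocyanin and flavonoid genes was called by limma (1 at an unadjusted p under 0.05, median -0.20), with UF3GT at 0.38 (adjusted p = 0.17) and AT5MAT at -0.27 (adjusted p = 0.55). None of 4 iron homeostasis genes was called (1 at an unadjusted p under 0.05, median 0.24), with PYE at 0.35 (adjusted p = 0.17), nor were the root genes UPB1 (1.02, adjusted p = 0.078) and EXPA7 (0.27, adjusted p = 0.66). The light-signalling factor HYH (0.28, adjusted p = 0.19), the clock gene GI (0.01, adjusted p = 0.98), the singlet-oxygen signalling gene EX1 (0.34, adjusted p = 0.077) and the cytokinin response regulator ARR15 (-0.64, adjusted p = 0.35) were likewise not called. UPB1 was called higher without the outlying Col-0 control array or the outlying Col-0 lincomycin array (adjusted p = 0.029 and 0.028). PYE was called higher without that Col-0 control array (adjusted p = 0.035), and UF3GT without that Col-0 lincomycin array (adjusted p = 0.038). The 3 reference genes lay between -0.11 and 0.36 and none was called. A p short of the threshold does not show that these levels were equal.

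Larger families picked by their RefSeq synonyms were also counted, beside 9.58% of all genes called. Of 26 cytochrome P450 genes CYP71B20 was called (0.73, adjusted p = 0.028), of 14 glutathione transferases GSTU18 (1.15, SE 0.12, adjusted p = 0.00013), GSTU16 (1.11, adjusted p = 0.011) and GSTF3 (1.03, adjusted p = 0.0066) were, all higher. Of 39 expansin, xyloglucan and pectin enzyme genes EXPA15 (-1.002, adjusted p = 0.0096) and EXPB1 (-0.73, adjusted p = 0.017) were lower. Of 7 WRKY, NAC and ethylene response factor genes WRKY42 was lower (-0.73, adjusted p = 0.041), and of 10 MYB and bHLH genes bHLH104 was higher (0.47, adjusted p = 0.029). The calls of CYP71B20, WRKY42 and bHLH104 ended when any 1 of the gun1-101 lincomycin arrays was left out. That of GSTU16 ended without Col-0 lincomycin replicate 1 or 2, and that of EXPB1 without gun1-101 lincomycin replicate 3 or Col-0 lincomycin replicate 2.

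By RefSeq's order of genes 34 lead genes had 53 tested neighbours, of which 15 were called, against 9.58% of all genes. Of the 15, 14 went in the direction of the lead gene and 1 in the other. These counts take a pair of lead genes from both sides. COR15B lies beside COR15A, AT1G30170 (-2.18, adjusted p = 0.00069) beside AT1G30160 (-2.11, adjusted p = 0.00068), AT1G26761 beside AT1G26762 (2.07, adjusted p = 0.0025), AT2G29370 beside AT2G29360 (1.02, adjusted p = 0.0018), AT1G70820 beside AT1G70810 (1.06, adjusted p = 0.00023), and TRY beside SPCH. Smaller differences were those of AT3G04320 (-0.46, adjusted p = 0.045) beside AT3G04330 and AT4G28740 (0.54, adjusted p = 0.028) beside PSAE-1. AT2G33000 (0.49, adjusted p = 0.042) beside GH9B8 went in the opposite direction to it. In the plastid genome ndhJ lies beside ndhK, petL between psbE (-0.75) and petG (-0.69), and rps14 beside psbZ (-0.71). Outside the plastid genome, both genes were called in the same direction in 86 of 10357 adjacent tested pairs, 0.830%. Lead genes were called by choice, so this share is not a like measure for their neighbours. Whether probes of neighbouring copies bind each other's transcripts was not tested.

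The genotypes were also compared without lincomycin, where 3 of 16550 genes were called (0.0181%; limma), 2105 at an unadjusted p under 0.05, whereas on lincomycin 4135 had such a p. The 3 were Hsp70-2, AT5G66150 and AT5G62360. AT5G66150 differed by 1.32 without lincomycin (adjusted p = 0.022) and by -0.06 on it, and AT5G62360 by -1.53 (adjusted p = 0.022) and by 0.36. The outlying Col-0 control array decided this count: without it 1054 genes were called, beside 2220 on lincomycin in the same fit. Without the 2 outlying arrays 2854 were called, beside 4088 on lincomycin, and with array weights 1998, beside 4385. Whether the number of differing genes itself differs was not tested. No gene was called by limma without Col-0 control replicate 2, without replicate 3, or without any 1 of the gun1-101 control arrays.

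The interaction was called for 1153 genes (6.97%), 664 with a positive (4.01%) and 489 with a negative value (2.95%). Of the 1585 genes that differed on lincomycin, 870 (54.9%) were called in the interaction too, among them 14 of the 15 highest and 12 of the 15 lowest. AT4G12490 (3.20, adjusted p = 0.052) was the exception among the highest, and AT3G21950, AT3G49744 and AT5G40981 were the exceptions among the lowest. The interaction was called for 3876 genes without the outlying Col-0 control array and 2986 without the outlying Col-0 lincomycin array, and its count lay between 379 and 704 without any 1 of the other arrays. With the level of the early unannotated probe sets as a covariate it was 527.

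Across genes, the genotype difference on lincomycin was weakly and inversely related to that without it, 2 comparisons that share no array (Pearson r = -0.26, Spearman rho = -0.32, 16550 genes, which are not independent replicates). Of the 848 genes higher on lincomycin, 312 (36.8%) had a positive difference without it, as did 52.4% of all genes. Of the 737 lower genes, 240 (32.6%) had a negative difference without it, as did 47.6% of all genes. The coefficient was -0.44 without the 2 outlying arrays and -0.09 with the covariate. The early unannotated probe sets were, on average, lower in gun1-101 than in Col-0 on lincomycin and higher without it.

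**Figure D5:**
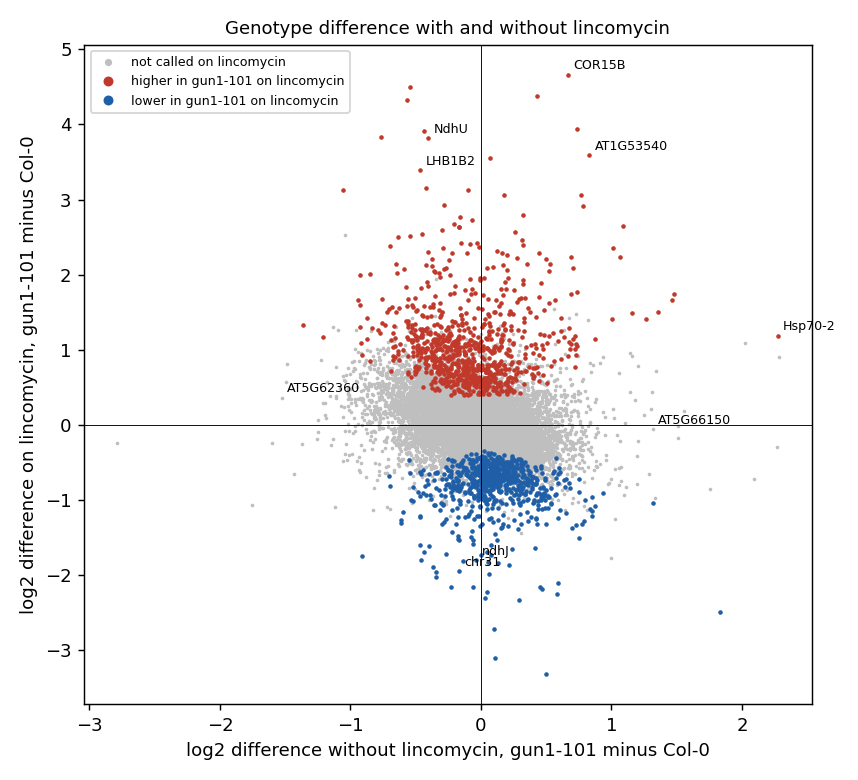
Log2 difference of each gene, gun1-101 minus Col-0, on lincomycin (vertical axis) against that without lincomycin (horizontal axis). Red and blue points were called higher and lower on lincomycin; most spread along the vertical axis, and Hsp70-2, AT5G66150 and AT5G62360 are the 3 genes called without lincomycin.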

How the data were processed

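RNA of whole seedlings was measured on Affymetrix arrays in 4 groups of 3. The authors deposited log2 values per probe set made by RMA, with Affymetrix Expression Console 1.3 named in the submitters' processing notes. RMA removes any shift of all genes together. For the array design, background settings and batches the sources used here name nothing. Of 38408 probe sets, the platform annotation gives 1 gene for 16722, several for 759 and no gene for 20927. Names were updated through RefSeq, which matched 16574 of the 16722. For the 146 genes with more than 1 probe set, the one with the highest mean over the 12 arrays was kept, which left 16550 genes.

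Group means were fitted with limma 3.58.1 in R 4.3.3 (lmFit and eBayes) on all 12 arrays, with no block. There were 8 residual and 3.89 prior degrees of freedom, and residual SDs had a median of 0.22 log2 units. Contrasts were gun1-101 minus Col-0 on lincomycin, the same without lincomycin, and their difference (the interaction). P-values were adjusted by Benjamini-Hochberg over all genes and called under 0.05. No list was tested; counts and medians are given. The steps were tested on simulated data. With 3 arrays per group, their number limits the precision. No pair of arrays was identical.

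Genes named were, among those called without overlap of the arrays, the 15 highest and 15 lowest, the 8 highest and lowest with a symbol, and up to 4 called members per list (8 for plastid-encoded lists), or with none called the 2 largest. Other list members are given to account for a list. Genes described as picked out after their values were seen fall outside this rule. Members and lists were chosen with earlier results of these data known. No sequence is given, since none was used here.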

Additional observations from a re-analysis of the deposited data

Results flagged for a closer look

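The genotype difference on lincomycin was unlike that without it, by the interaction term of the limma fit, in 1153 genes. Of the 42 lead genes, chosen as the most different on lincomycin, 38 were called in the interaction. Because the choice used the lincomycin side of the same contrast, their values are a description. The interaction is the log2 difference between gun1-101 and Col-0 on lincomycin minus that without it.

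Among the genes highest on lincomycin the interaction was 4.00 for COR15B, 5.04 for AT2G34620, 3.95 for AT2G29370, 4.89 for AT4G22513, 4.35 for AT1G21500, 4.60 for AT2G25510 and 4.22 for NdhU. It was 2.76 for AT1G53540, 3.48 for AT1G26761, 3.86 for LHB1B2, 3.57 for LHCB4.2, 4.19 for AT5G48490, 3.22 for AT1G70820 and 2.30 for AT5G62240. Further genes with a symbol were PSAE-1 at 2.89, AGL87 at 3.06, TRY at 3.07 and COR15A at 1.71.

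Among the lowest it was -3.82 for AT4G22960, -3.21 for AT4G05380, -2.81 for AT4G36230, -4.32 for AT5G03495, -2.62 for AT2G34360, -2.34 for AT3G54520 and -2.83 for AT3G04330. It was -2.28 for AT4G08570, -2.65 for AT1G30170, -2.10 for AT3G28570, -2.62 for AT2G39040 and -2.70 for AT1G30160. Genes with a symbol were chr31 at -1.78, ndhJ at -1.76, petL at -1.73, rps14 at -1.80, APL3 at -1.89, psbM at -1.53, GH9B8 at -1.41 and NET1D at -1.67. AT5G03495 averaged 6.03, 8.53, 6.26 and 4.43 in gun1-101 lincomycin, Col-0 lincomycin, gun1-101 control and Col-0 control. The genotype means were thus ordered oppositely with and without lincomycin, but the difference without it was not called.

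Probe sets that the platform annotation pairs with no gene also differed on lincomycin. Of these 20927, 1319 were called (6.30%), 704 higher and 615 lower in gun1-101, when all probe sets were fitted together.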

How the results depend on the processing

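Of 165 named genes called, 121 kept their call in every alternative that gave them a value, the test against a difference of 0.5 log2 units aside. Of the 190 named genes, 6 gave no value under a minimum mean of 5 log2 units. No direction of a called gene or list median reversed. The count of genes called on lincomycin, 1585, lay between 748 and 2464 with 1 array left out, and that at least 2-fold, 551, between 377 and 816. The interaction count, 1153, lay between 379 and 3876, and the count without lincomycin, 3, between 0 and 1054. Leaving out the 2 outlying Col-0 arrays gave 4088, 869, 5378 and 2854 in the same order, array weights gave 4385 on lincomycin, 5536 for the interaction and 1998 without lincomycin. Every probe set in place of 1 per gene gave 2582 on lincomycin, 1104 of them at least 2-fold, and 5 without lincomycin, from more features tested. The array covariate gave 527 for the interaction. The test against 0.5 log2 units gave 196 on lincomycin (151 higher, 45 lower; the main split was 848 and 737), all at least 2-fold, 129 for the interaction and 0 without lincomycin, since it asks for a larger difference. Whether the numbers in the labels pair the arrays was not settled. In their deviations, same-numbered arrays of the lincomycin groups correlated at 0.09, 0.25 and 0.03. The gun1-101 replicates 1 and 2 correlated best with the same-numbered Col-0 arrays, and gun1-101 replicate 3 with Col-0 replicate 1 (0.15). A replicate block gave 1669 genes on lincomycin and 1 without it. The correlation between the genotype differences was -0.26, -0.44 without the 2 outlying arrays and -0.09 with the covariate, alternatives chosen after seeing the data. Where no cause is given, the cause was not tested. Depth does not apply to arrays, and signal over background was not given.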

Other observations

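Further gene families, picked out by RefSeq names after their values were seen, are described here with no test of the families. On the low side, all 3 measured NET1 genes, which encode actin-binding proteins, were lower in gun1-101 on lincomycin: NET1A at -1.15 (adjusted p = 0.0026), NET1B at -1.26 (adjusted p = 0.0033) and NET1D at -1.39 (log2 differences, limma). Of 15 TRM genes, named for the TON1 recruiting motif of microtubule-associated proteins, 5 were lower and none higher, with TRM15 at -0.82 (adjusted p = 0.0066) and TRM24 at -0.83 (adjusted p = 0.032). Of 17 IQD genes, which encode calmodulin-binding proteins, 5 were lower and none higher, with IQD30 at -0.78 (adjusted p = 0.014). TUB1, a beta-tubulin also picked out after its values were seen, was lower, at -0.97 (adjusted p = 0.00031). Cell-wall families had 4 lower and 1 higher of 22 trichome birefringence-like genes (TBL19 at -1.26, adjusted p = 0.0035) and 3 lower of 19 glycosyl hydrolase 9 genes (GH9B13 at -0.92, GH9C2 at -0.91). Proteases had 4 lower of 9 subtilases, led by SBTI1.1 (6.10, 6.26 and 6.25 in gun1-101 and 7.53, 7.49 and 7.65 in Col-0, -1.35, adjusted p = 1.3e-05), and 4 lower of 32 serine carboxypeptidase-like genes (SCPL15 at -1.32, adjusted p = 0.0011). In all genes tested, 4.45% were lower. The call of TRM24 ended without any 1 of the gun1-101 lincomycin arrays or Col-0 lincomycin replicate 1 or 2, that of IQD30 without gun1-101 lincomycin replicate 2 or 3 or Col-0 lincomycin replicate 1 or 2, and that of GH9C2 without gun1-101 lincomycin replicate 3 or Col-0 lincomycin replicate 1.

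On the high side, 6 of 51 glucosyltransferase (UGT) genes were higher and none was lower, against 5.12% higher and 4.45% lower of all genes, so no more is read from this count. UGT73C1 had 9.22, 8.70 and 8.98 in gun1-101 and 7.11, 6.46 and 6.90 in Col-0 (2.14, adjusted p = 3.8e-05), and UGT73C6 differed by 1.44 (adjusted p = 0.0024). Of 10 thioredoxins and glutaredoxins, 5 were higher and 1 lower, with GrxC5 at 0.99 (adjusted p = 0.043). The GH3 family, whose members include enzymes that conjugate auxin to amino acids, went both ways, with GH3.9 at 1.66 (adjusted p = 0.00074) and GH3.3 at 1.36 (adjusted p = 0.014) higher and GH3.17 at -0.47 (adjusted p = 0.022) lower. AT1G52220, a synonym of which is curvature thylakoid 1C, was higher by 1.57 (adjusted p = 0.00012). The call of GrxC5 ended without any 1 of the gun1-101 arrays, Col-0 lincomycin replicate 1 or 2, or Col-0 control replicate 3. That of GH3.3 ended without gun1-101 lincomycin replicate 3 or Col-0 lincomycin replicate 1, and that of GH3.17 without any 1 of the gun1-101 lincomycin arrays or Col-0 lincomycin replicate 2.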
